A study of Caenorhabditis elegans with 2 samples.

Results

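Dense clusters of UNC-3 binding peaks on chromosomes I to IV are described here. They were chosen by the measured positions of the peaks. A cluster is a row of 3 or more neighbouring peaks in which each lies fewer than 1000 bp, edge to edge, from the next. The rule took in 502 peaks, in 149 clusters, of the 4390 peaks on these chromosomes and of 6892 in the whole list. The peaks come from ChIP-Seq of UNC-3 carrying GFP at the C-terminus, expressed from the endogenous locus in strain OH13990 (allele ot839). Chromatin was prepared from whole L2 larvae without further treatment, and the immunoprecipitate (anti-GFP, ab290; 1 library) was compared by the authors with input DNA of the same strain (1 library). UNC-3 is made in a small set of neurons, so most of the chromatin came from cells without it. There was no replicate and no untagged library was analysed here. All values below belong to the same ChIP against input comparison that placed the peaks. They are therefore given as descriptions, and no test was run.

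UNC-3 is the only C. elegans transcription factor of the COE (Collier/Olf/Ebf) type, a family that binds DNA as dimers at a pseudo-palindromic site. It acts as a terminal selector: it switches on and keeps on the genes that give cholinergic motor neurons of the ventral nerve cord their identity, such as those for acetylcholine synthesis and transport, ion channels and receptors. The genome of C. elegans is compact, with short distances between genes, so that closely neighbouring peaks can belong to 1 regulatory region, to several elements of 1 gene or to several genes. Peaks were not assigned to genes here, and all positions are those of the ce10 assembly, counted from 1.

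Clusters took in 11.4% of the peaks of chromosomes I to IV (95% Wilson interval 10.5 to 12.4%, counting error only). Another 894 peaks (447 chains) had 1 neighbour within the same distance, and 2994 had none. Most clusters were short. Of the 149, 110 held 3 peaks, 28 held 4, 8 held 5, 1 held 6 and 2 held 7. They spanned a median of 3303 bp, with quartiles of 2685 and 4245 bp, and from 1726 to 15359 bp. In all they spanned 551.4 kb, or 0.895% of the 61.6 Mb between the starts of the 4 chromosomes and their last peaks. The called intervals filled a median of 63.1% of a cluster, from 44.2 to 93.7%.

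The 353 gaps inside clusters had a median of 510 bp and ran from 60 to 991 bp. Of these, 169 (47.9%) were under 500 bp, against 225 of the 447 gaps in chains of 2 (50.3%; median 497 bp). Neighbouring summits, the points of highest read depth, lay a median of 1190 bp apart, with quartiles of 955 and 1428 bp. The limit of 1000 bp is not a natural break in the spacing: 63 neighbour gaps on these chromosomes measured at least 900 and under 1000 bp, and 65 at least 1000 and under 1100 bp. Just inside it were 2 clusters of 3 peaks with a gap of 991 bp. On chromosome II from 7631743 to 7634472 the fold enrichments were 3.16, 8.32 and 3.49, and on chromosome III from 6278430 to 6281239 they were 4.82, 8.98 and 4.66. Just outside it were 2 trios of peaks on chromosome II with gaps of 1013 and 1014 bp and 1 on chromosome I with a gap of 1022 bp. Their fold enrichments were 11.98, 5.66 and 10.01 (from 9010315 to 9013743), 19.8, 4.99 and 7.59 (from 7891691 to 7895489), and 19.3, 7.70 and 15.0 (from 12986762 to 12990154).

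Clustered peaks had the same median enrichment as the rest and a wider spread. The fold enrichment is the ratio of the ChIP fragments at the summit plus 1 over the background count plus 1. Its median was 6.82 in the clustered peaks (95% interval 6.15 to 7.65) and 6.82 in the other peaks of these chromosomes (6.62 to 6.99). With the limit of 1000 bp set between summits, which left 63 clustered peaks, the median in clusters was 4.16. The quartiles were 3.99 and 14.2 in clusters, and 4.32 and 12.2 outside them. In chains of 2 they were 4.71 and 14.6, so the high upper quartile was not particular to clusters. At the low end, 39 clustered peaks (7.77%) were enriched less than 3-fold, against 154 of the 3888 others (3.96%) and 4.4% of all 4390. Part of the 39 lay in a few clusters of high background described below. Among them were all 5 peaks of the cluster on chromosome I from 13610265 to 13614137. At the high end, 179 (35.7%) reached 10-fold, against 1244 others (32.0%) and 32.4% of all, and 25 (4.98%) reached 30-fold, against 110 others (2.83%) and 3.08% of all. Peaks in chains of 2 had a higher median, 7.76, and single peaks a lower one, 6.54, so the median did not go up steadily with the number of neighbours. Of the peaks in chains of 2, 38.9% reached 10-fold, 3.91% reached 30-fold and 4.47% were under 3-fold. The share at 10-fold was thus higher in chains of 2 than in clusters. A q-value at or below 1e-10 was found at 69.3% of the clustered peaks, at 73.9% of the others and at 73.4% of all.

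**Figure D1:**
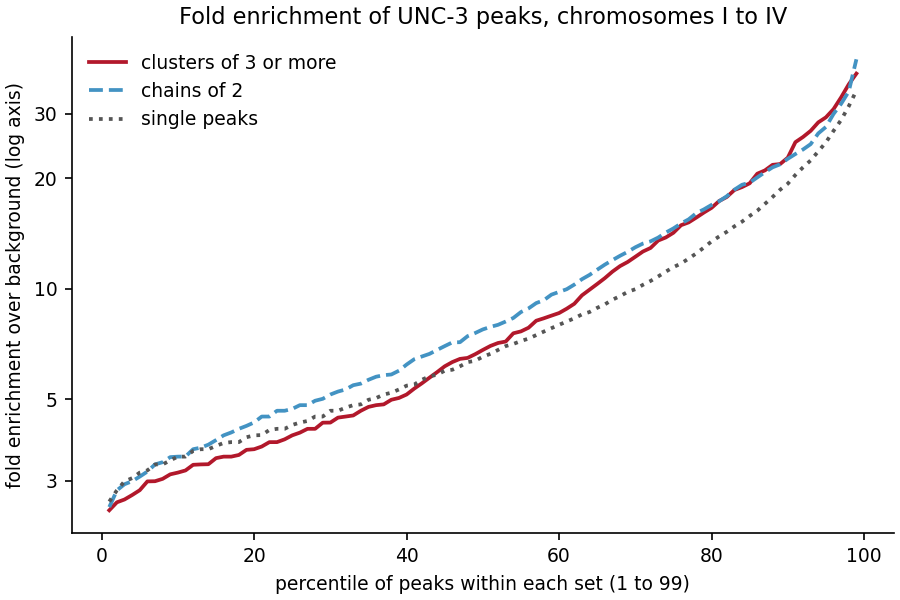
Fold enrichment over background (log axis) at each percentile from 1 to 99 of the peaks in clusters of 3 or more (n = 502), in chains of 2 (n = 894) and of single peaks (n = 2994). The line of clustered peaks starts below both others and ends above that of single peaks, with medians of 6.82, 7.76 and 6.54 for the sets in the order of the legend.

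The depth behind these values can be read from the list, since the fold enrichment and the Poisson p-value of a peak together fix the pileup, the whole number of fragments over its summit. The pileup was recovered for all 502 clustered peaks. The median was 47 fragments and the range 14 to 326, against a median of 43 and a range of 14 to 499 at the other peaks. With so few fragments at the weakest summits, their order within a cluster is the least certain part of the data. The expected background was at the genome-wide average of 5.01 fragments for 45.2% of the clustered peaks, against 48.9% of the others and 48.5% of all. It was at least 2 times that average at 21 clustered peaks (4.18%), against 68 others (1.75%) and 2.03% of all. These 21 peaks lay in 8 clusters, which are described separately below.

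Clustered peaks were also wider, with a median of 579 bp (546 to 611 bp) against 511.5 bp (505 to 521 bp) for the others. More than 1000 bp was covered by 80 of them (15.9%), against 233 others (5.99%) and 7.13% of all. The greater median width was not particular to clusters. Peaks in chains of 2 had a median of 573 bp (559 to 591 bp), and single peaks one of 495.5 bp. Of the peaks in chains of 2, 10.5% covered more than 1000 bp. Since peaks widen with enrichment, widths were also compared within 4 equal bands of the fold enrichment of all 4390. In the lowest band the median was 375 bp in clusters and 342 bp outside, in the second 494 and 440 bp, in the third 617.5 and 549 bp, and in the highest 938.5 and 749.5 bp. The clustered peaks had the higher median in each of the 4 bands. A wide interval also leaves a shorter gap to its neighbour, so width enters the rule that chose them. The summit lay within 50 bp of the centre of the interval at 65.3% of the clustered peaks and at 75.9% of the others. In the 298 peaks at the ends of clusters it was shifted by a median of only 3.5 bp (−2.5 to 10.5 bp) towards the rest of the cluster.

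Within a cluster enrichment was shared unequally. The strongest peak had a median of 16.8-fold and the weakest a median of 3.73-fold, and their ratio had a median of 3.79 (95% interval 3.05 to 4.49), with quartiles of 2.18 and 6.30 and extremes of 1.10 and 14.8. In the 110 clusters of 3 peaks the medians by rank were 15.9-fold, 7.08-fold and 3.83-fold. The strongest peak held a median of 52.7% of the summed fold enrichment. An equal split would give 33.3%, which is also the least that the strongest of 3 can hold. The strongest also had the widest intervals, with medians of 786, 568 and 425.5 bp by rank. Unequal enrichment was not limited to clusters: runs of 3 consecutive peaks outside clusters (n = 1250) had a median ratio of 2.80 (2.70 to 2.92), against 3.20 (2.66 to 4.07) in clusters of 3. Neighbouring peaks differed by a median of 2.07 times inside clusters, 1.90 times in chains of 2 and 1.85 times where both lay outside clusters and at least 1000 bp apart. This difference did not go up steadily with the gap inside clusters. The median difference was 1.86 times for gaps under 250 bp (n = 60), 2.16 times from 250 bp, 2.26 times from 500 bp and 2.05 times from 750 bp.

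**Figure D2:**
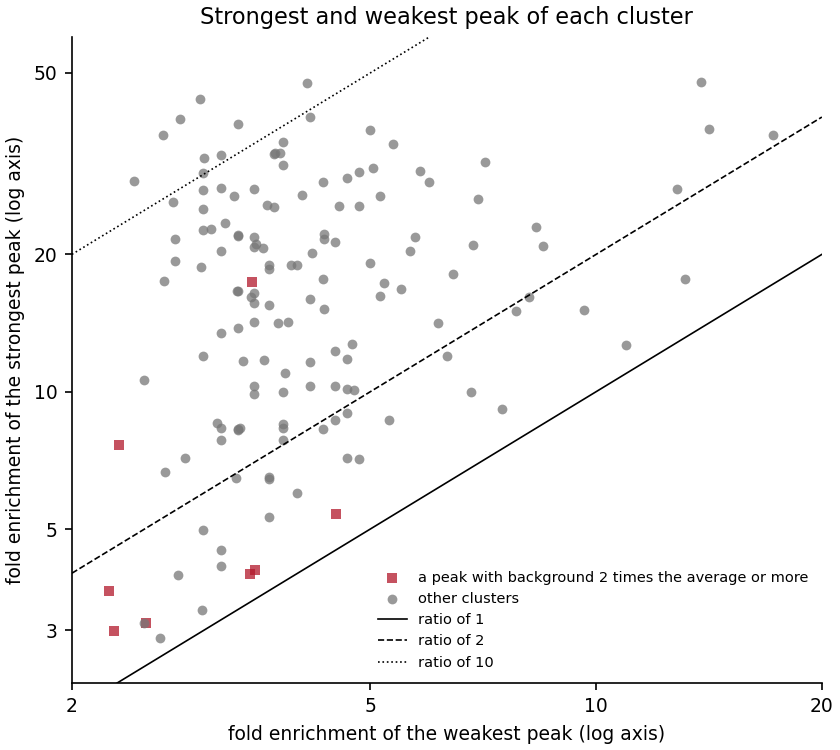
Fold enrichment of the strongest peak against that of the weakest in each of the 149 clusters (both axes logarithmic), with lines at ratios of 1, 2 and 10. Most points lie between the ratios 2 and 10; the squares are the 8 clusters with a background at least 2 times the genome-wide average, 6 of which have a ratio of 2 or less.

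Most clusters had 1 or 2 strong peaks and weaker companions. At 10-fold or more, 40 clusters had no peak, 54 had 1, 42 had 2, 11 had 3 and 2 had 4. In 6 clusters every peak reached 10-fold, whereas in 12 none reached 5-fold. Of all 4390 peaks on these chromosomes 32.4% reached 10-fold, so these counts are not read as a trait of clusters. Of the variance of log2 fold enrichment, 9.55% (1.18 to 19.1%) lay between clusters and the rest between peaks of the same cluster, against 4.56% between runs of 3 outside clusters (1.30 to 7.96%). Without the 8 clusters of raised background the share was 1.05% (−6.80 to 10.3%). The interval takes in the 9.55% of all clusters, so no drop is read from it. The share was 34.0% (8.00 to 61.8%) in the 20 clusters (63 peaks) formed when the limit of 1000 bp was set between summits. Edge limits of 500 and 2000 bp gave 8.31% and 10.1%. The limit between summits also took in far fewer peaks, so how distance is measured and how strict the limit is cannot be told apart. The background itself was mostly shared within a cluster, with 75.8% of its variance on the log2 scale between clusters. Peaks this close together share local background in any case, so no trait of clusters is read from this value.

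The strongest peak took no fixed place. It was the leftmost in 49 clusters, the rightmost in 49 and an inner one in 50 (33.8%, 26.7 to 41.7%), and 1 cluster had a tie, on chromosome IV from 5088782 to 5091486 (3.16, 4.16 and 4.16-fold). Inner places made up 38.7% of the places on average over the clusters. In clusters of 3 the numbers were 39, 34 and 36 from left to right. The median fold enrichment was 7.38 at end peaks (6.43 to 8.60) and 6.36 at inner peaks (5.34 to 7.15). End and inner peaks come from the same clusters but were pooled here. Neither a difference nor its absence is therefore read from these medians.

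The longest clusters show how different such rows of peaks could be. The strongest row of 7 peaks was on chromosome II from 13060693 to 13070400, over 9708 bp. Its fold enrichments were 8.00, 9.05, 13.7, 25.5, 20.0, 18.7 and 3.72 from left to right, with pileups of 50, 68, 96, 167, 150, 136 and 23 fragments. Enrichment thus climbed to the fourth peak and declined beyond it, and 4 of the 7 peaks reached 10-fold. The other row of 7, on chromosome IV from 8572642 to 8581193, was nearly flat, with fold enrichments of 2.54, 3.11, 2.51, 2.79, 2.99, 2.67 and 3.04. Its background was from 15.0 to 23.4 fragments, and its pileups, from 39 to 69 fragments, were not low. The row of 6 peaks on chromosome III from 7718208 to 7726908 alternated, with fold enrichments of 6.49, 2.99, 21.0, 3.66, 30.1 and 25.9. Its backgrounds were between 5.01 and 5.04 fragments, and the 3.66-fold peak lay 92 bp from the 30.1-fold one.

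Of the 8 clusters of 5 peaks, the 2 with the highest summed fold enrichment were on chromosome I. From 10494304 to 10499926 the fold enrichments were 17.8, 4.82, 6.47, 25.6 and 6.49, and from 9195125 to 9201037 they were 18.1, 8.84, 2.99, 7.12 and 25.1. In both, a pair of strong peaks was separated by weaker ones, and in the second the strong peaks were the outermost. A further cluster of 5, on chromosome II from 5960709 to 5967101, was chosen after its values were seen because, like the strongest row of 7, it had 4 peaks at 10-fold or more. Its fold enrichments were 9.65, 15.1, 11.1, 13.6 and 10.5, a ratio of strongest to weakest of 1.57.

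**Figure D3:**
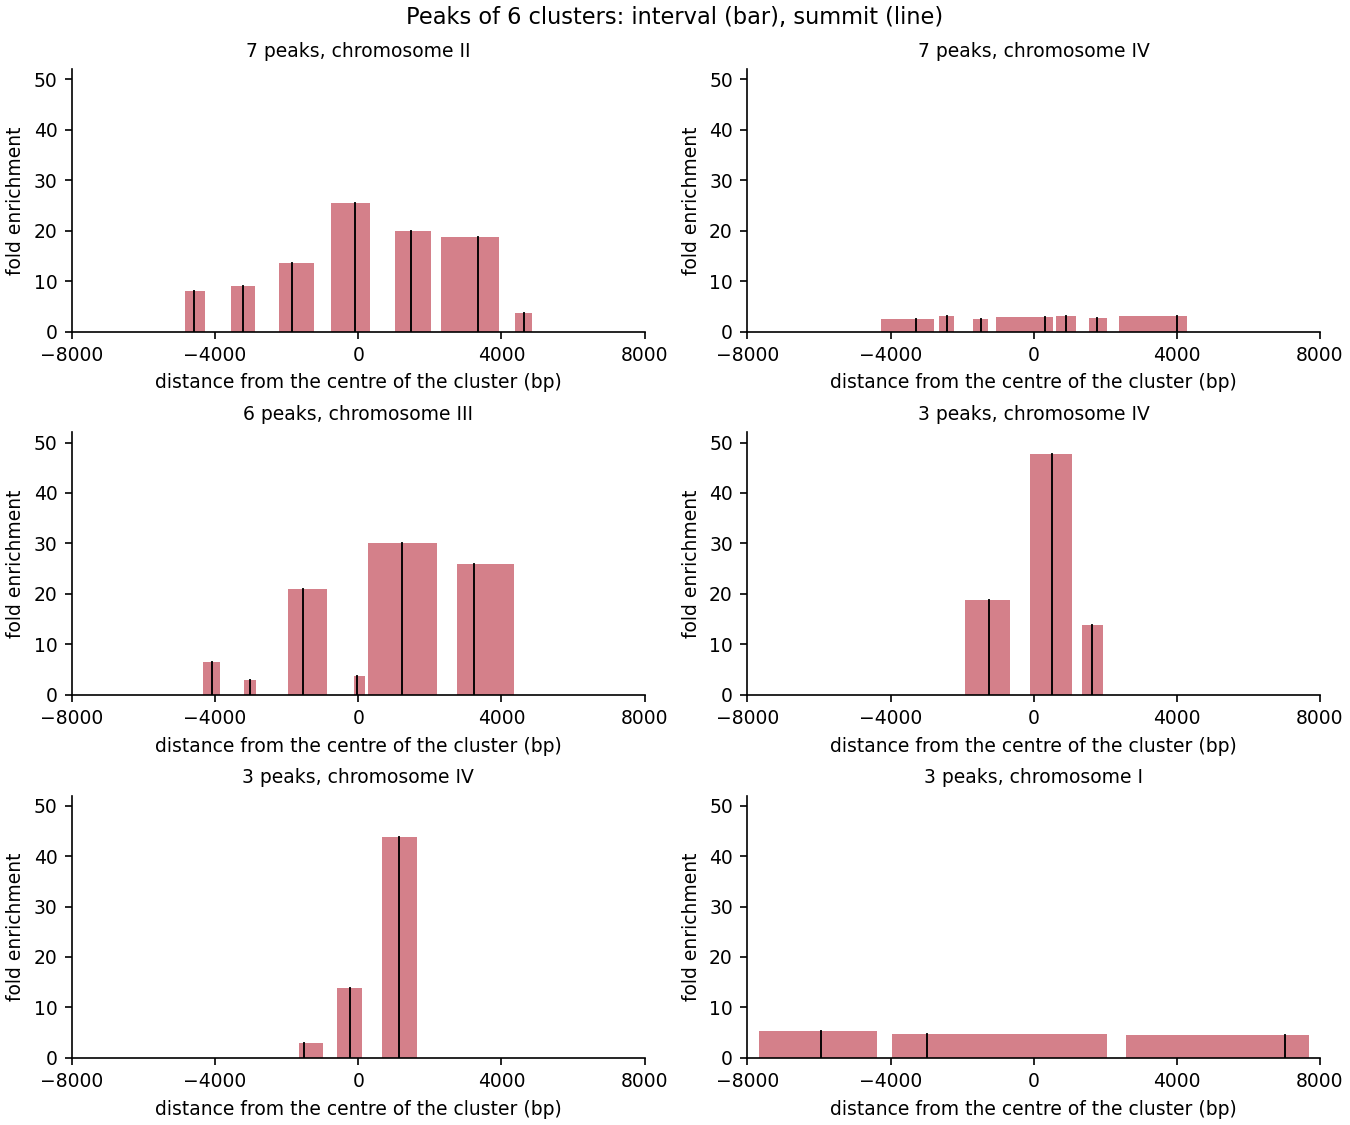
Fold enrichment (vertical axis) of each peak in 6 clusters against the distance from the centre of the cluster in bp. Bars cover the called interval and lines mark the summit; the row of 7 on chromosome II climbs to 25.5-fold and declines, that on chromosome IV stays between 2.51 and 3.11-fold, and the wide cluster on chromosome I stays between 4.50 and 5.40-fold over 15359 bp.

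The strongest clustered peaks were found in clusters of 3 or 4. On chromosome IV from 5971865 to 5975719 the fold enrichments were 18.7, 47.6 and 13.8, and the middle summit had 326 fragments, the highest pileup of any clustered peak. On chromosome I from 9852245 to 9856880 they were 6.15, 47.6, 5.89 and 4.12. The first of these was strong throughout, while in the second a single peak stood among weak ones and held most of the enrichment. On chromosome III from 4280670 to 4283474 the values were 6.49, 40.0 and 4.16, a strong middle peak between a pair of weak ones. On chromosome IV from 7660397 to 7663706 they were 2.96, 13.8 and 43.8, with the highest ratio of strongest to weakest of all clusters, 14.8. On chromosome IV from 1067244 to 1070983 they were 14.9, 2.79 and 39.7, with a ratio of 14.2. The third most uneven cluster, also on chromosome IV (from 3131051 to 3135684), climbed from left to right, with 2.65, 4.89, 14.9 and 36.6-fold. The weakest peaks of the 3 most uneven clusters had 17 to 19 fragments over the summit, a few more than the 14 of the weakest peaks in the list, so the ratios rest on small counts in the denominator.

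Some clusters were strong in more than 1 peak. The highest median was that of the cluster on chromosome III from 8794694 to 8797756, with fold enrichments of 3.33, 38.6 and 36.1, followed by that on chromosome III from 1923211 to 1926957, with 30.2, 37.7 and 14.2. Next was one on chromosome II from 7589786 to 7593918, with 24.6, 4.82 and 30.3. In the first and the last of these, strong peaks of nearly equal height had a weak companion, whereas in the second every peak passed 10-fold. Of the 5 other clusters in which every peak did so, that on chromosome I from 11588863 to 11593167 had 36.6, 17.2 and 22.5-fold, and that on chromosome II from 8784305 to 8787869 had 11.1, 12.6 and 10.9-fold, both chosen after their values were seen. The cluster on chromosome II, with pileups of 66, 75 and 66 fragments, was the most even among the 6.

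The narrowest clusters were all on chromosome I. The narrowest, from 8222903 to 8224628, spanned 1726 bp with gaps of 104 and 186 bp, and its fold enrichments were 16.5, 3.49 and 4.49. The next, from 4282650 to 4284512, had 2.50, 2.83 and 3.11-fold, with pileups of 14, 16 and 19 fragments, and was weak throughout. The third, from 7396463 to 7398491, had 4.16, 13.5 and 3.16-fold. The widest cluster, on the same chromosome from 10204050 to 10219408, held only 3 peaks, of 3307, 5995 and 5088 bp, with 5.40, 4.73 and 4.50-fold. The expected background at its summits was 10.7, 16.1 and 14.3 fragments.

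That cluster is 1 of the 8, with 33 peaks, in which a peak had a background at least 2 times the genome-wide average, a set chosen after its values were seen. In 6 of these 8 the ratio of strongest to weakest was 2 or less, and their median ratio was 1.28, against 3.84 in the 141 other clusters, of which 26 had a ratio of 2 or less. Their strongest peaks had a median of 4.03-fold, from 2.99 to 17.4-fold, against 17.6-fold, from 2.88 to 47.6-fold, in the other 141. They spanned a median of 5658 bp, against 3257 bp in the others. The highest background of any clustered peak was 33.8 fragments, on chromosome III in the cluster from 10224459 to 10227470, where the fold enrichments were 7.63, 2.31 and 2.51 and the pileups 265, 43 and 45 fragments. The 2 weaker peaks there had pileups close to the median of all clustered peaks, so a low fold enrichment did not mean few fragments. The exception in strength was a cluster on chromosome I from 4544685 to 4550859, with 5.02, 5.06, 17.4 and 3.47-fold over backgrounds of 24.7, 11.8, 9.60 and 7.93 fragments. On chromosome I from 13610265 to 13614137, 5 peaks had 2.99, 2.28, 2.47, 2.65 and 2.73-fold, over backgrounds of 7.80 to 11.6 fragments. Raised background and a ratio of 2 or less were found together in 6 of the 8 clusters. The background enters the denominator of the fold enrichment, so lower values in clusters chosen for high background are partly built in. The part of the background in the evenness was not tested.

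Of the 12 clusters in which no peak reached 5-fold, 5 were among these 8 and 7 were not. In 1 of the 7, on chromosome I from 13405397 to 13408378 and chosen after its values were seen, all 4 peaks had a background of 5.01 fragments, with 3.16, 4.49, 3.33 and 4.16-fold. The tied cluster on chromosome IV given above also had a background of 5.01 fragments at each peak. The most even cluster of all was on chromosome III from 7431086 to 7433327, with 2.62, 2.68 and 2.88-fold, pileups of 27, 19 and 17 fragments and backgrounds of 9.68, 6.45 and 5.25 fragments, the first just under 2 times the average. The next, from 7435062 to 7438364, had 3.32, 2.99, 3.10 and 3.29-fold with 21 to 23 fragments, and lay 1734 bp to its right. The third most even, on chromosome I from 10130997 to 10133163, had 3.86, 3.46 and 3.99-fold, with a background of 12.7 fragments at its first peak, and is 1 of the 8. In the first and the last of these the pileup and the background were both highest at the leftmost peak, while the fold enrichment was not.

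Clusters were on average far from each other, with a median of 250595 bp between neighbours, but 14 of the 145 neighbouring pairs were less than 10000 bp apart. These included 3 groups of 3 or more clusters, which were looked up after the values were seen. The group on chromosome III extended over 31092 bp, from 7407273 to 7438364, and held 4 clusters with 15 peaks, the 2 most even clusters among them. Every clustered peak in it was weak, from 2.24 to 3.96-fold. The background there reached 14.6 fragments in the cluster from 7415746 to 7421208, which is 1 of the 8 described above, and 9.68 fragments in the most even cluster, and its part in these values was not tested. Of the 2 groups on chromosome II, that from 6819486 to 6839785 held 3 clusters with 10 peaks between 2.98 and 33.1-fold. The other, from 7968047 to 7991658, held 3 clusters with 9 peaks between 3.83 and 28.8-fold. In the first of these the fold enrichments were 2.98, 15.3, 5.49 and 18.8 in the left cluster, 4.16, 11.7 and 3.61 in the middle one and 21.8, 3.16 and 33.1 in the right one. Both groups on chromosome II thus held peaks above 10-fold beside weak ones, unlike the group on chromosome III.

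All 4 chromosomes carried clusters. Chromosome II had 44 of them (149 peaks, 14.4% of its peaks), chromosome I had 39 (130 peaks, 10.9%), chromosome III had 37 (124 peaks, 11.2%) and chromosome IV had 29 (99 peaks, 9.40%). Peaks enter these shares 3 to 7 at a time and by the rule itself, so no difference between chromosomes is read from them. The number of all peaks per Mb was 67.6 on chromosome II, 79.2 on I, 80.7 on III and 60.2 on IV. The median fold enrichment of the clustered peaks was 7.67 on chromosome II, 6.89 on III, 6.65 on IV and 6.15 on I, against 6.82, 6.82, 6.49 and 7.05 for the other peaks in the same order. On chromosome I clustered peaks thus had the lower median, and on chromosomes II, III and IV the higher one. These medians are given without intervals, and no difference is read from them.

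Clustered peaks were gathered in the central part of the chromosomes, which in C. elegans autosomes is rich in conserved genes and poor in repeats compared with the arms. In the middle of 3 equal parts lay 268 of them (53.4%, 49.0 to 57.7%), against 1634 of the others (42.0%, 40.5 to 43.6%) and 43.3% of all. Peaks of the same cluster have nearly the same position, so the interval for clustered peaks is too narrow. The share was 53.8% on chromosome I, 55.7% on II, 54.0% on III and 48.5% on IV, against 40.8%, 43.9%, 42.2% and 41.4% of the other peaks. Where peaks are denser, more of them fall within 1000 bp of another, so this share and the density of peaks cannot be told apart. By 10 equal parts of the chromosome, clustered peaks made up 16.2% of the peaks in the sixth and 15.7% in the seventh, and 6.80% in the ninth, where the share was lowest.

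**Figure D4:**
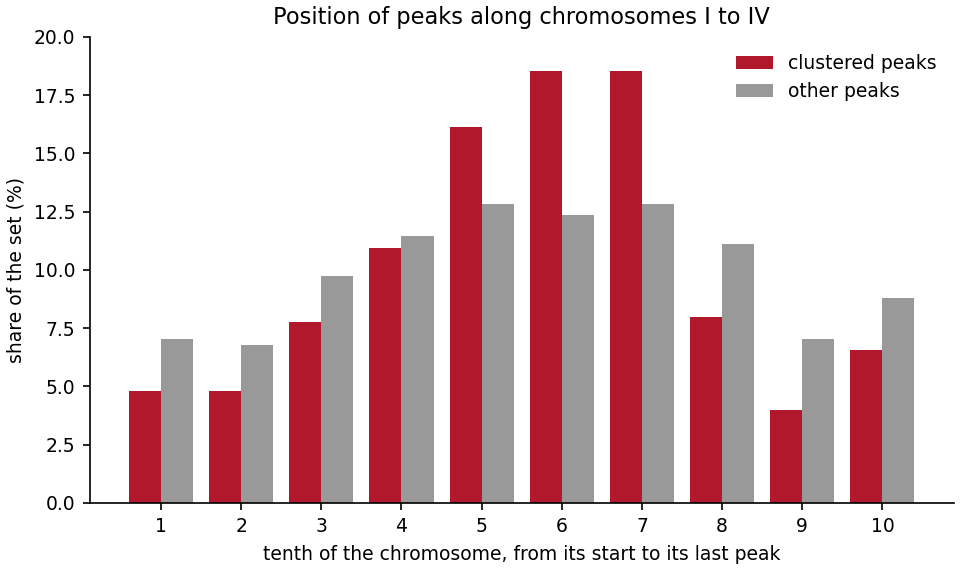
Share of the 502 clustered peaks and of the 3888 other peaks of chromosomes I to IV (vertical axis, % of each set) in each of 10 equal parts of the chromosome, measured from its start to its last peak. Clustered peaks have their highest shares in the sixth and the seventh part, 18.5% each, against 12.4% and 12.8% of the other peaks.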

How the data were processed

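ChIP-Seq with an antibody against GFP and its input were sequenced from whole L2 worms, as 1 library each. Unique reads, as the study calls them, were placed by the authors on ce10 using bowtie2, and MACS2 served as peak caller. For neither tool is a version given in the sources used here. The q-value cutoff is stated as 0.05 in one place of the study and as 0.005 in another, and the largest deposited q-value was 0.0125. For each peak they deposited the interval and summit in bp, the fold enrichment over background, the −log10 of the p-value and of the q-value, and a score, which is that −log10 q-value multiplied and cut to whole numbers and was not used here. The fold enrichments are linear ratios at the summit, made by the peak caller of the authors.

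Peaks of chromosomes I to IV were sorted, and neighbours with fewer than 1000 bp between their edges were chained. Pileup and background at each summit were solved from these p-values and fold enrichments, with 1 as the pseudocount of the caller and a tolerance of 0.001 on the −log10 scale. A background within 0.5% of the lowest was counted as the genome-wide average. Intervals on shares are 95% Wilson intervals, those on medians come from the binomial order statistics, and that on the variance share from the F distribution; all cover counting error only and treat peaks or clusters as independent. The chaining, the pileups and the variance share were checked on simulated data. Python 3.11.15, numpy 2.4.6, scipy 1.17.1, pandas 2.3.3 and matplotlib 3.10.9 were used.

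The members, lists and alternatives were chosen with earlier results of these data known. Clusters were named by rule: the 5 with the most peaks, with ties broken by the summed fold enrichment, the 3 widest and the 3 narrowest, those with the 5 strongest peaks, the 3 with the highest median, the 3 most and the 3 least uneven, and those nearest to the distance limit. Clusters named outside this rule are marked as such. No sequence or gene annotation of ce10 was used, so motifs and genes were not analysed here.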

Additional observations from a re-analysis of the deposited data

How the results depend on the processing

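No paired analysis was possible because the values stem from a single ChIP library set against a single input, without replicate numbers to pair. Of 63 alternative values, 25 moved beyond 1.5 times (counts) or beyond the interval of the value. Under 500 bp between edges there were 136 clustered peaks (3.10%) in 42 clusters, with a median width of 613.5 bp and a median ratio of strongest to weakest of 4.83. Under 2000 bp there were 1085 (24.7%) in 289 clusters, with the strongest peak inside in 44.4%. Under 1000 bp between summits there were 63 (1.44%) in 20 clusters, with medians of 4.16-fold and 475 bp, the strongest peak inside in 20.0%, a median ratio of 2.10 and 34.0% of the variance between clusters. Among peaks with q-values up to 1e-5 the share was 9.28% and the median fold enrichment 7.65, and up to 1e-10 there were 186 peaks (5.77%) in 57 clusters, with medians of 10.1-fold and 690.5 bp. A shorter distance or a thinner list gives fewer clusters by construction. The remaining alternatives were chosen after seeing the data. Merging neighbours nearer than 291 bp, the narrowest listed width, first left 339 clustered peaks (8.04%) in 102 clusters, against 502 in 149. Leaving out peaks with a background at least 2 times the average moved none of the 9 values beyond its limit, but brought the variance between clusters to 2.34%. The share in the middle of 3 equal parts stayed within its interval under all 7 alternatives. Depth could not be varied; the lowest listed pileup was 14 fragments.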
